A study of Mus musculus with 2 samples.

Results

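The array entries mmu-miR-193, mmu-miR-193b and mmu-miR-365 were taken by name, entries marked with a star excluded, which gave 3 of the 567 mouse microRNAs (miRNAs) on the array. Each entry had 2 probes, so 6 probes with 10 spots each were read on every array. The study profiled the miRNAs of microvesicles that adipocytes of the mouse preadipocyte line 3T3-L1 shed into their medium. Vesicles were collected by ultracentrifugation of medium conditioned for 48 h, either over days 2 to 4 or over days 8 to 10 as the labels count them, and 1 array was hybridised per window. Both groups came from the same cell line (CL-173) in high-glucose DMEM with 10% FCS, and both had been induced with insulin at 10 µg/ml, dexamethasone at 0.25 µM and 3-isobutyl-1-methylxanthine at 0.5 mM. By the labels the windows differed in the days of collection only. Serum carries miRNAs of its own, and signal from serum and signal from cells cannot be told apart here. With 1 array per window there is no replicate check and no test. Per the labels' protocols 100 ng of RNA was labelled for each array, so signals are per amount of RNA. They give neither the number of vesicles nor the miRNA per vesicle. The standard errors (SE) given are those over the spots of an array, which are technical.

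A miRNA is a short RNA that guides repression of messenger RNAs, chosen largely by its seed, bases 2 to 8 from its 5′ end. The genes of miR-193b and miR-365 lie together, and a second copy of that arrangement holds the gene of miR-193a beside another miR-365 gene. The miR-193b and miR-365 cluster is known as enriched in brown fat, the heat-producing fat. It was reported to promote brown adipocyte differentiation in cultured cells, while mice that lack it were reported to form brown fat. 3T3-L1 cells are commonly used as a model of white adipocytes.

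All 3 entries matched a RefSeq mature miRNA (build GRCm38.p6). The array's miR-193 is miR-193a-3p in RefSeq, where mir-193 is an older name of the gene Mir193a. The mature sequences are shown with the seed in capitals, since the seed groups them.
miR-193a-3p: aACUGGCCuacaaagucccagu
miR-193b-3p: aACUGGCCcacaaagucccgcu
miR-365-3p: uAAUGCCCcuaaaaauccuuau
miR-193a-3p and miR-193b-3p had the same seed, and no other of the 1679 mature names in the RefSeq table had it. miR-365-3p was the only name there with its seed. All were on the plus strand, miR-193a-3p at chr11:79712009-79712030 and miR-193b-3p at chr16:13449570-13449591. miR-365-3p had a place on each chromosome, at chr11:79726467-79726488 and chr16:13453895-13453916.

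miR-193a-3p and miR-193b-3p were identical at 19 of 22 bases. The 3 that differ are in capitals in the next lines and, counted from the 5′ end, read U9C, A20G and G21C from miR-193a-3p to miR-193b-3p.
miR-193a-3p: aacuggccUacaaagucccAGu
miR-193b-3p: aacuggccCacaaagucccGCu
The files give each probe a position without naming the genome build, which the sources used here do not state. The spacing of these positions equalled that of the mature 3′ ends in RefSeq, 14458 bases from miR-193 to miR-365 and 710060 bases from miR-193b to miR-484. The probes were therefore taken to end at the 3′ end of the miRNA, with the lengths of the stretch given. Equal spacing alone does not fix that end, since a constant offset would leave the spacing the same. On this placement the 16-base and 17-base probes of miR-193 and of miR-193b covered all 3 differing bases, and those of miR-365 covered 21 and 22 bases. The other bases of miR-193 and miR-193b are identical, so their probes may share signal, which was not tested.

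The hairpins from which these miRNAs are cut are shown with the measured strands in capitals, since they set what the array can separate.
Mir193a: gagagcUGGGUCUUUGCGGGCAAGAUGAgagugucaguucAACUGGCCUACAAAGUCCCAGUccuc
Mir365-2: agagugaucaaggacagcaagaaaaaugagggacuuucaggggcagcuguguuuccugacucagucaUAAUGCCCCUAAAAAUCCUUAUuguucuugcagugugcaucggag
Mir193b: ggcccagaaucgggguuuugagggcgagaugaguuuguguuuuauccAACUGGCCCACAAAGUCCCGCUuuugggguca
Mir365-1: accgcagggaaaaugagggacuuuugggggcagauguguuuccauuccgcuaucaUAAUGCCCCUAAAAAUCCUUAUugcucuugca
Mir193a and Mir365-2 lie 14365 bases apart on chromosome 11, and no RefSeq gene contains both. Mir193b and Mir365-1 lie 4238 bases apart on chromosome 16, within the long noncoding RNA genes Gm32817 and Gm53058. The mature miR-365-3p is the same in both hairpins, so its signal cannot be assigned to either locus. The miR-193 and miR-193b entries each belong to 1 locus.

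The values are processed spot intensities of the scanner software, in its own linear units, after background subtraction. All 60 spots of the 6 probes were flagged well above background on each array, and no mouse miRNA spot was saturated. Of these spots, 4 at day 2-4 and 1 at day 8-10 were flagged as outliers and left out. A probe's brightness depends on its own sequence, so signals were compared only within a probe, between the arrays.

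The 16-base probe of miR-193 had a mean intensity of 9.90 ± 1.34 (SD over 9 spots, 7.28 to 11.6) at day 2-4 and 18.1 ± 1.45 (SD over 10 spots, 15.4 to 19.9) at day 8-10. Its 17-base probe had 78.4 ± 2.02 (SD over 8 spots) at day 2-4 and 147 ± 5.34 (SD over 9 spots) at day 8-10. On both probes every retained late spot lay above every early one.

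The 16-base probe of miR-193b had 48.0 ± 2.76 (SD over 9 spots) at day 2-4 and 41.7 ± 1.98 (SD over 10 spots) at day 8-10. Its 17-base probe had 98.5 ± 7.48 (SD over 10 spots, 87.2 to 109) at day 2-4 and 83.6 ± 5.54 (SD over 10 spots, 74.6 to 91.7) at day 8-10. The early and late spots of this miRNA overlapped on both probes, with the late means lower.

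The 21-base probe of miR-365 had 34.1 ± 3.13 (SD over 10 spots, 30.3 to 40.6) at day 2-4 and 83.9 ± 3.18 (SD over 10 spots, 79.3 to 87.6) at day 8-10. Its 22-base probe had 47.5 ± 2.56 (SD over 10 spots) and 109 ± 5.17 (SD over 10 spots). The late spots lay above the early ones on both probes.

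After scaling, the spots of the miR-193 and miR-365 probes still did not overlap between arrays, and those of the miR-193b probes still did. Of all 279 probes detected on both arrays, 37.6% had every late spot above every early one and 26.5% every late spot below, so such a separation was common.

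**Figure D1:**
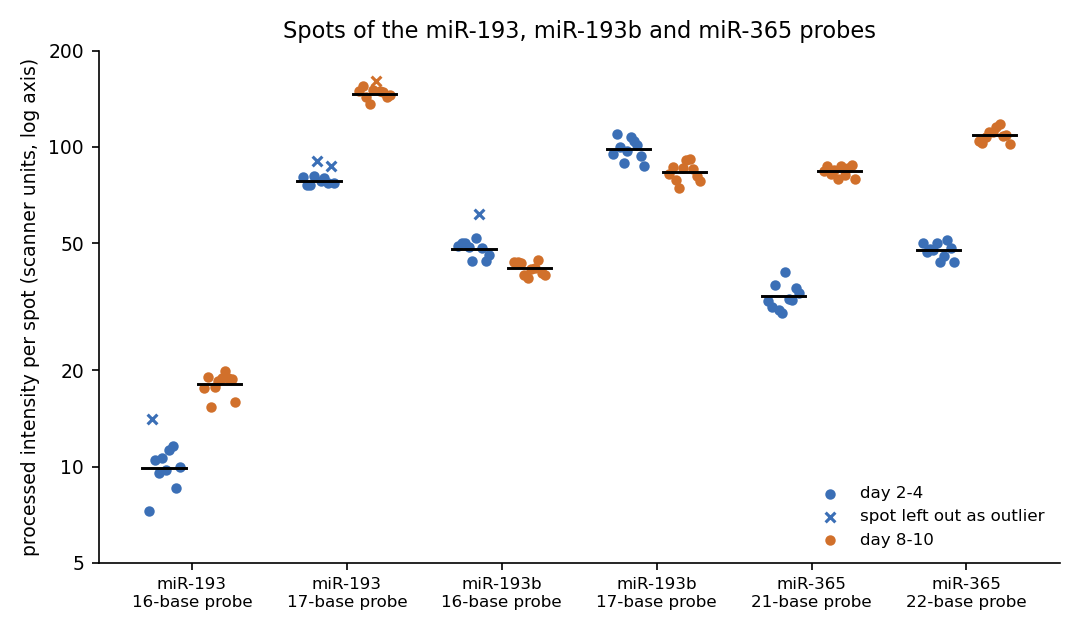
Processed intensity of each spot (scanner units, log axis) for the 6 probes, labelled by the length of the stretch they cover, at day 2-4 (blue) and day 8-10 (orange). Black lines are means over the retained spots, and crosses are spots left out as outliers. The late spots of miR-193 and miR-365 lie above the early ones, with means of 18.1 against 9.90 for the 16-base probe of miR-193, while those of miR-193b overlap.

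Late vesicles gave higher signals for miR-193 and miR-365, while the signal of miR-193b differed by little more than its error over spots in the main setting. Signals were divided by each array's 75th percentile among probes seen on both, 108 at day 2-4 and 95.2 at day 8-10, and a miRNA's difference is the mean log2 difference of its probes. At day 8-10 the scaled signal of miR-365 was 2.71-fold that at day 2-4 (log2 difference 1.44, spot SE 0.028). miR-193 was 2.11-fold higher (log2 difference 1.08, spot SE 0.041). miR-193b differed by -0.034 on the log2 scale (spot SE 0.029), with a 95% interval over spots from -0.091 to 0.023, and by -0.54 with the percentile over all probes.

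The rule for calling a change asked for detection on both arrays, a difference of at least 2-fold, and one of more than 2 SE over spots. By this rule 2 of the 3 members were higher and none was lower. Of all 145 miRNAs detected on both arrays, 15.9% (23) were higher and 7.59% (11) lower, with a median log2 difference of 0.20. In the order of these 145 from the highest difference down, miR-365 was 12th, miR-193 22nd and miR-193b 94th. miR-193 stood close to the 2-fold line, at which its interval over spots began (0.997 to 1.16).

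**Figure D2:**
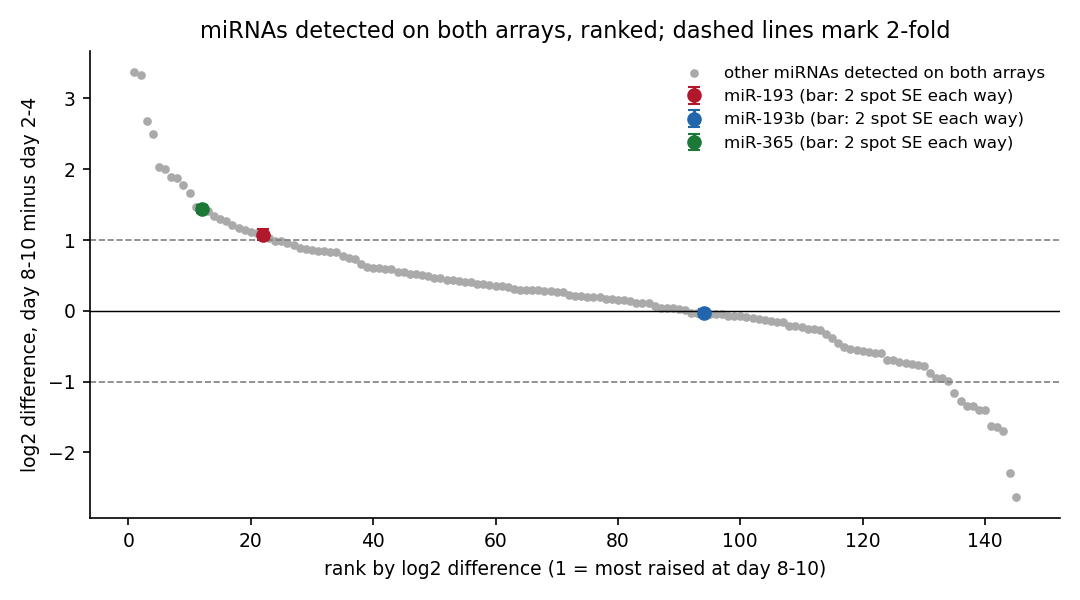
Log2 difference (day 8-10 minus day 2-4) of the 145 miRNAs detected on both arrays, against their rank. Coloured points with bars of 2 spot SE each way are miR-365 (1.44), miR-193 (1.08) and miR-193b (-0.034), grey points are the other miRNAs, and dashed lines mark 2-fold.

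In the main setting the probes of an entry gave nearly the same difference. The log2 differences were 1.06 (spot SE 0.079) and 1.09 (spot SE 0.022) for the 16-base and 17-base probes of miR-193, but 0.30 and 0.71 with normexp. Those of miR-193b were -0.018 (spot SE 0.035) and -0.050 (spot SE 0.046). For miR-365 they were 1.49 (spot SE 0.044) for the 21-base and 1.39 (spot SE 0.033) for the 22-base probe.

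miR-193 and miR-193b, which have the same seed, differed in how they changed between the windows. The log2 difference of miR-193 minus that of miR-193b was 1.11 (spot SE 0.050), and the 4 pairings of their probes gave 1.08 to 1.14. This value is a ratio within each array, so it is the same with the 75th percentile over all probes and with no scaling, but with normexp it was 0.50. It shows unequal change of signals that the probes may in part share, not that either miRNA stayed constant. miR-365 exceeded miR-193b by 1.47 (spot SE 0.040), or 0.78 with normexp, and miR-193 by 0.36 (spot SE 0.049). miR-193b and the miR-365-1 copy are neighbours on chromosome 16, and miR-193 and the miR-365-2 copy are neighbours on chromosome 11. The late to early ratio of the shared miR-365 signal was closer to that of miR-193 than to that of miR-193b.

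Whether miR-193 and miR-365 passed 2-fold depended on the scaling and on the background correction with its added offset. When the 75th percentile came from all probes, miR-365 was 1.90-fold and miR-193 1.48-fold higher. With normexp, a background correction that pulls dim signals together, they were 1.71-fold and 1.42-fold higher. miR-193 was also under 2-fold with quantile normalization (1.94-fold), with no scaling (1.86-fold) and with the software's summed gene signal (1.85-fold). Over these settings the median of all miRNAs moved too, down to -0.30 with the percentile over all probes, where 10 miRNAs were higher and 29 lower. Relative to that median, miR-365 stood 0.65 to 1.30 and miR-193 0.38 to 1.07 above it over the alternatives, and miR-193b 0.12 to 0.28 below it.

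**Figure D3:**
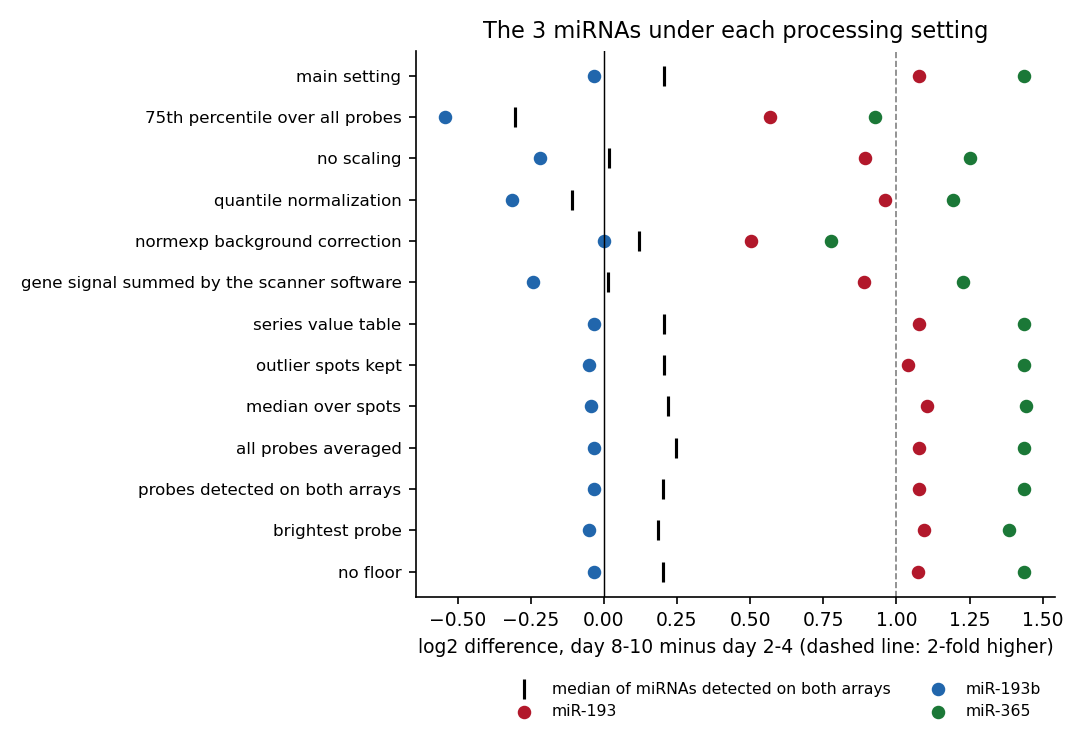
Log2 difference (day 8-10 minus day 2-4) of miR-193, miR-193b and miR-365 under each processing setting, with a black tick for the median of the miRNAs detected on both arrays and a dashed line at 2-fold higher. The order miR-365, miR-193, miR-193b is the same in every row, from 1.44, 1.08 and -0.034 in the main setting.

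The scanner software's own summary of each miRNA, its total gene signal before any scaling between arrays, flagged all 3 as detected on both arrays. For miR-193 it was 58.4 (software error 5.32) at day 2-4 and 110.0 (software error 9.93) at day 8-10. For miR-193b it was 96.9 (software error 7.33) and 83.5 (software error 6.32). For miR-365 it was 54.0 (software error 4.00) and 128.6 (software error 9.23). The late to early ratios were 1.88, 0.861 and 2.38, in the same order of size as the scaled differences.

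The opposite strand of the Mir193a hairpin, listed on the array as miR-193*, was detected in late vesicles only. It is miR-193a-5p in RefSeq, at chr11:79711975-79711996, and it is shown with its seed in capitals because it is the only opposite strand of these hairpins on the array.
miR-193a-5p: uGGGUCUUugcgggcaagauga
It had 4 probes of 5 spots, covering 11 to 14 bases. The 14-base probe had a mean intensity of 1.46 ± 0.594 (SD over 5 spots) at day 2-4, with 0 spots well above background. At day 8-10 it had 8.02 ± 0.891 (SD over 5 spots), with all 5 spots well above background. The 13-base probe went from 0.702 ± 1.26 to 5.17 ± 0.946 (SD over 5 spots each), with 2 late spots well above background, too few to count it as detected. The 11-base and 12-base probes had means below 0 on both arrays.

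Against the lowest detected probe of the early array, 4.86 in intensity units, miR-193* was at least 1.87-fold higher at day 8-10. That bound rests on 1 of its 4 probes and on the scaling and background correction used here. It was 1.31-fold with the percentile over all probes, and with normexp the difference was 1.18-fold.

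**Figure D4:**
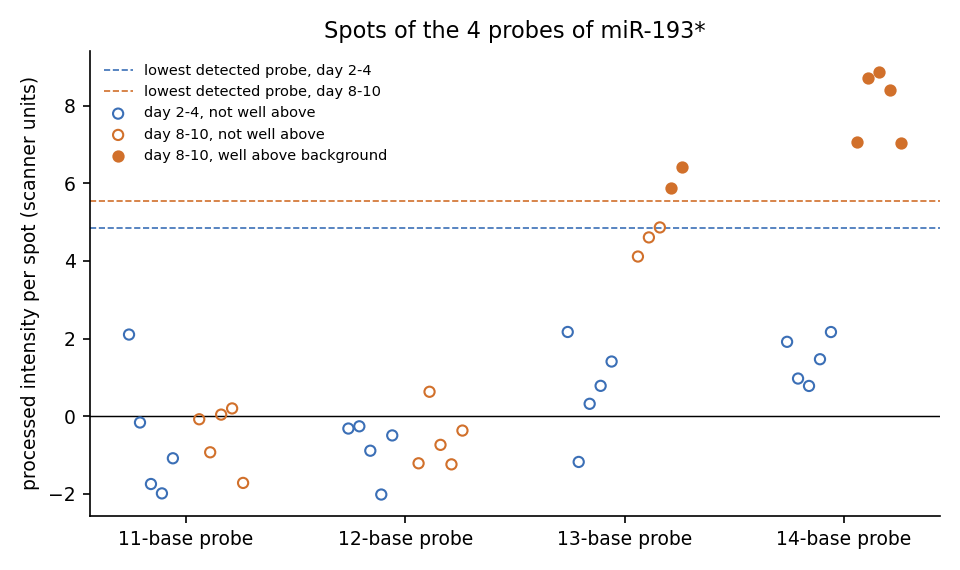
Processed intensity of each spot (scanner units) of the 4 miR-193* probes, by the length of the stretch they cover, at day 2-4 (blue) and day 8-10 (orange). Filled points are spots well above background, and dashed lines are the lowest detected probe of each array. The late spots of the 14-base probe, with a mean of 8.02, lie above both lines, and no early spot does.

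The miRNAs nearest to each member in log2 difference were taken as those with the most similar pattern, a likeness over 2 arrays only. Nearest to miR-365 (1.44) were miR-210 (1.41), which hypoxia induces, miR-107 (1.47), and miR-378 (1.34), which lies in the gene of a coactivator. Nearest to miR-193 (1.08) were miR-30e (1.09), let-7b (1.12) and miR-30c (1.03). Nearest to miR-193b (-0.034) were miR-23b (-0.031), miR-669c (-0.031) and miR-345-5p (-0.038).

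Other miRNAs with a reported role in brown or beige fat were not counted as higher more often than miRNAs in general. Of 20 such miRNAs on the array, 13 were detected on both arrays, 2 of which passed 2-fold upward at day 8-10 and 0 downward. That is 15.4%, against 15.9% of all miRNAs. Their median log2 difference was 0.61, against 0.20 over all miRNAs.

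Among the 10 reported to promote thermogenic fat, 6 were detected on both arrays, with a median log2 difference of 0.80. miR-378 (log2 difference 1.34) and miR-30c (1.03), which represses the corepressor Rip140, were at least 2-fold higher. Both were under 2-fold with the percentile over all probes and with normexp. miR-30c, read from 1 probe, was also under it with no scaling, quantile normalization, the gene signal, the median over spots and all probes averaged. miR-26b (0.99), miR-30b (0.61), miR-26a (-0.048) and miR-328 (-0.59) were within 2-fold. Of these, miR-328 had -1.10 with the percentile over all probes and miR-26b 1.03 with the median over spots. miR-182 was detected at day 8-10 only, by at least 4.48-fold as the mean of its probes under the settings used here. Its 2 probes disagreed, with log2 differences of 0.43 and 3.89, and with normexp the mean was 0.63. miR-455, linked to browning through BMP7, was detected at day 2-4 only, without a usable bound. miR-196a, which represses Hoxc8, and miR-203 were not well above background on either array.

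Among the 10 reported to restrain thermogenic fat, 7 were detected on both arrays, all within 2-fold, with a median log2 difference of 0.26. miR-106b (0.92), miR-27b (0.85) and let-7i (0.83) were nearest to the line. miR-27a (0.26), miR-34a (0.22) and miR-93 (0.11) were lower in size, and each was negative with the percentile over all probes. The sign also turned with quantile normalization and the gene signal for miR-34a and miR-93, and with no scaling and no floor for miR-93. miR-125b-5p had -0.25. miR-155, which represses Cebpb, was detected at day 2-4 only, at least 1.26-fold higher there as the mean of its probes. Its 2 probes disagreed, with log2 differences of -0.71 and 0.055, and with normexp the mean was 0.035, in the opposite direction. miR-133a and miR-133b, muscle miRNAs that repress Prdm16, were not well above background on either array. Several members of these lists differ by few bases (miR-30b and miR-30c, miR-26a and miR-26b, miR-27a and miR-27b), and their probes may share signal.

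**Figure D5:**
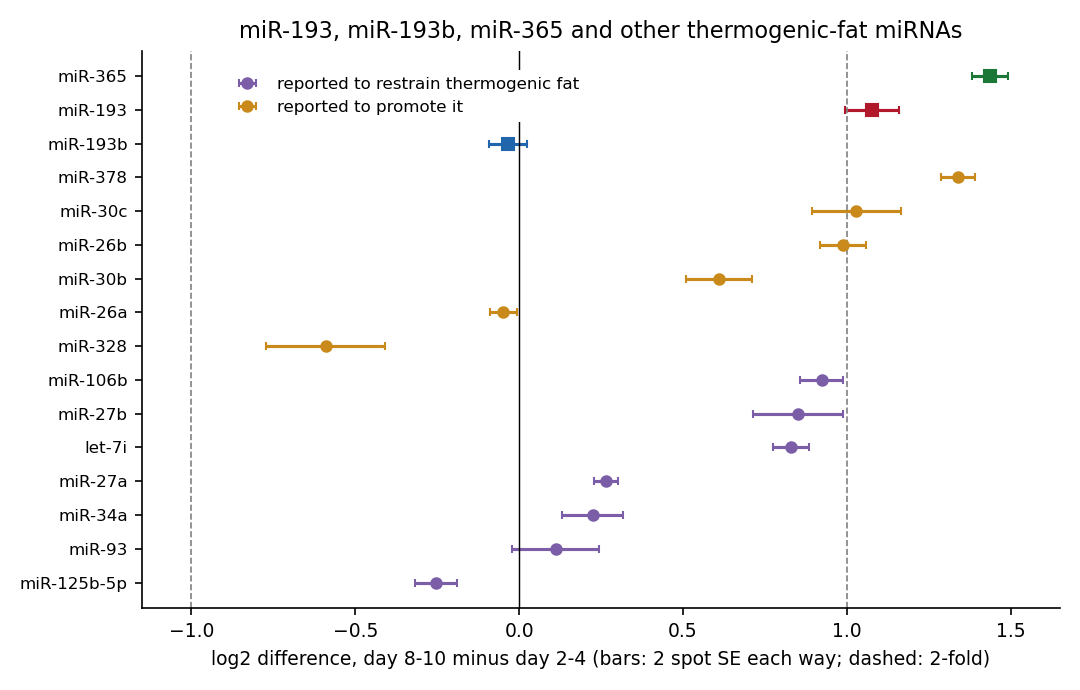
Log2 difference (day 8-10 minus day 2-4, bars of 2 spot SE each way, dashed lines at 2-fold) of miR-365, miR-193 and miR-193b (squares) and of the 13 other thermogenic-fat miRNAs detected on both arrays, in orange where reported to promote such fat and in purple where reported to restrain it. miR-378 (1.34) and miR-30c (1.03) lie above the 2-fold line with miR-365 and miR-193.

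The labelled cell type was set against marker miRNAs. All 8 adipocyte-associated miRNAs were detected on both arrays, 6 of them at least 2-fold higher at day 8-10 (15.9% of all miRNAs were). The summed probe signals of the 8 were 771 at day 2-4 and 1833 at day 8-10. All sums in this paragraph are unscaled, whereas the fold calls divide signals by 108 at day 2-4 and 95.2 at day 8-10. With the percentile over all probes and with normexp 2 of the 8 were at least 2-fold higher, miR-103 and miR-148a. miR-378, counted as higher here, is also on the thermogenic list. The probes of miR-103 and miR-107, and those of miR-30a and miR-30e, may share signal, which was not tested. All 5 fibroblast or mesenchymal miRNAs were detected on both, 2 of them, miR-199a-5p and miR-214, at least 2-fold lower (7.59% of all miRNAs were), with summed signals of 3408 and 2684. That count was 3 with the percentile over all probes and 1 with normexp. Within 2-fold on that list were miR-199b (-0.95), miR-22 (0.59) and miR-21 (0.16, but negative with no scaling and with the percentile over all probes). None of the 6 muscle miRNAs was detected on either array. Of the 6 blood-cell miRNAs, 3 were detected on both arrays and all of these within 2-fold. The unscaled signals of the 6 summed to 1515 and 1382, of which miR-451 gave 1466 and 1328. The scaled log2 difference of miR-451 was 0.043, opposite in sign to the fall of the unscaled sum. miR-144 was detected at day 8-10 only, by at least 1.57-fold in the main setting, with late probe signals that summed to 13.3. miR-142-3p and miR-150 were undetected. Of 3 liver miRNAs, miR-192 was detected on both arrays (2.20-fold higher) and miR-194 at day 8-10 only, by at least 1.46-fold. Each was read from 1 probe, and the early log2 signal of miR-192 (-4.34) was near the floor (-4.48). The percentile over all probes lowered log2 differences by 0.51, so miR-192 was under 2-fold there and the bounds of miR-144 and miR-194 were smaller. Of 4 neural miRNAs, only miR-128 was detected, with a log2 difference of -0.33. The part of other cells or of serum in the values of miR-193, miR-193b and miR-365 was not tested.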

How the data were processed

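The authors deposited linear spot intensities of 1-colour (Cy3) Agilent mouse miRNA arrays, which per the file headers were read with Agilent Feature Extraction 9.5.3.1. The deposited processed intensity has a fitted background surface subtracted and, per the file headers, was not normalized between arrays. Other deposited columns were 0 or 1 flags per spot. Both arrays came from 1 scan. Per the labels' protocols, 100 ng of Trizol-extracted RNA was labelled. The series value table was checked to hold the same processed intensity for 24986 of 24986 spots (linear, not centred, medians 0.516 and 0.646).

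Control spots and outlier spots (237 and 249) were left out. Detection of a probe asked for a share above 0.5 of its spots well above background. Spots were divided by the array's 75th percentile among the 279 probes that both arrays detected, set to no lower than the lowest detected probe (4.86 and 5.55 in intensity units), log2 transformed and averaged per probe, and probes detected on at least 1 array were averaged per miRNA. A miRNA detected on 1 array got a lower bound only. Of 567 miRNAs, 156 and 166 were detected. The number of arrays, 1 per window, limits the precision. The calculation was tested on simulated arrays.

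Named were the members, opposite strands of their hairpins on the array, the thermogenic list, markers, and the 3 miRNAs nearest to each member in log2 difference. The members and lists were chosen with earlier results of these data known. The marker named miR-208 was read as the array's miR-208a and miR-208b. Sequences are from RefSeq (GRCm38.p6). Python 3.11.15, pandas 2.3.3 and, for normexp (offset 50), limma 3.58.1 were used.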

Additional observations from a re-analysis of the deposited data

How the results depend on the processing

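miR-193 and miR-365 were higher at day 8-10 under each of 14 alternatives, and miR-193b was lower under each of 14, by as little as -0.00050 with normexp. miR-193 stayed at least 2-fold higher under 9 and miR-365 under 12. The series value table, all probes averaged and probes detected on both arrays could not move these values, which equalled the main ones. The brightest probe of each member was its probe with the longer stretch, so these 2 alternatives gave the same values. miR-193 was under 2-fold with every other scaling, with normexp and with the gene signal.
With the 75th percentile over all probes, log2 differences were 0.57 (miR-193), -0.54 (miR-193b) and 0.93 (miR-365). With no scaling they were 0.89, -0.22 and 1.25, with quantile normalization 0.96, -0.31 and 1.19, and with the software's gene signal 0.89, -0.24 and 1.23. With normexp, miR-193 had 0.50 and miR-365 0.78. The linear rescalings moved all miRNAs of an array alike.
The difference between miR-193 and miR-193b, tried after seeing the data, ranged from 0.50 (normexp) to 1.27 (quantile).
For miR-193*, the log2 bound of 0.90 became 0.39 with the percentile over all probes, 0.72 with no scaling, 0.45 with quantile normalization, 0.24 with normexp and 0.52 with all probes averaged. Without a floor, its log2 difference against an early signal under the detection limit was 2.64.
Counts of higher and lower miRNAs were 10 and 29 with the percentile over all probes and 5 and 5 with normexp. Lower ones numbered 17 with quantile normalization and 18 with the gene signal. Of the other thermogenic miRNAs, 0 were higher with the percentile over all probes (1 lower) and with normexp, and 1 with no scaling, quantile normalization, the gene signal or all probes averaged. The 50 units added in normexp shrink ratios of dim signals by themselves, and other causes of these moves were not tested. No paired analysis was possible because each window has 1 array, and no array could be left out. Dim signals such as that of miR-193* are limited by the background.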
